A study of Mus musculus with 8 samples.

Results

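The transcripts described here encode 45 proteins that build the mitotic spindle, attach chromosomes to it and divide the cell afterwards. The list holds 6 mitotic kinases, 6 genes of the spindle checkpoint and anaphase, 8 kinesins, 7 kinetochore genes, 3 chromosomal passengers, 4 spindle assembly genes, 2 genes of the mitotic chromosome, 5 condensin subunits and 4 cytokinesis genes. The genes were chosen by symbol, and all 45 were found among the 55487 genes of the deposited table. They were measured by RNA sequencing of J774A.1 cells, a mouse macrophage line that divides in culture. All cells had been given lipopolysaccharide (LPS, 1 μg/mL), a coat component of bacteria that activates them, for 24 h. In 4 libraries LPS was the only agent, and in the other 4 ursodeoxycholic acid (UDCA, 1 mM), a secondary bile acid, was given with it for the same 24 h. No library without LPS was analysed here, so the level of these transcripts before activation is not known from these data.

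At mitosis, cyclin B with Cdk1 and the Polo and Aurora kinases drive chromosome condensation and spindle assembly. Kinetochores, built on centromeres that carry Cenpa, bind microtubules, and a checkpoint that senses empty kinetochores restrains Cdc20 until each chromosome is attached. The anaphase-promoting complex (APC/C) with Cdc20 then marks securin and cyclin B for destruction, separase cuts cohesin, and the central spindle and the contractile ring divide the cell. Most of these transcripts are known to be made in G2 phase and mitosis and to be scarce in cells that have left the cycle.

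The authors deposited 1 value per gene and library, taken here as TPM. This is a relative transcript abundance in which reads are divided by transcript length and scaled to a fixed total per library. The sum of TPM ranged from 973190 to 977485 with LPS and from 958918 to 962737 with UDCA, and 11412 to 11730 genes per library reached 1 TPM. TPM keeps no record of read numbers, so the depth is unknown and the errors are the SD over 4 libraries. Of the 12 macrophage markers, 11 were expressed, with means between 18.69 and 1988 TPM with LPS, and Mertk was listed at 0. Between the groups 4 of the 11 fell (Itgam, Lyz2, Cd68 and Csf1r) and 2 rose (Adgre1 and Fcgr1). Of the 18 markers of other cell types, 17 had means under 1 TPM in both groups. The neutrophil marker S100a8, which activated macrophages also make, was the exception, at 19.21 ± 1.603 TPM with LPS and 4.52 ± 3.03 with UDCA, and its part in the results on mitotic genes was not tested. The labels do not say whether the 4 libraries of a group came from separate cultures, so p-values measure the spread between these libraries, which may be technical.

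Many mitotic genes are known to carry 2 short promoter elements, the CCAAT box, bound by NF-Y, and the cell cycle genes homology region (CHR), bound through Lin54 by the DREAM and MuvB complexes. Promoters are therefore shown before the expression values. Windows from 250 bases before to 50 bases after the transcription start were taken from RefSeq on GRCm38.p6, and 39 of the 45 genes had one. The stretches below end near the start and run 5′ to 3′ on the strand of the gene, with capitals marking the letters CCAAT and TTTGAA or their reverse complements ATTGG and TTCAAA. They are Cdc20 at chr4:118437329-118437478 on the minus strand, Ube2c at chr2:164769794-164769923 on the plus strand and Espl1 at chr15:102296158-102296292 on the plus strand, all genes of anaphase. They are also the kinesin Kif11 at chr19:37376247-37376396 on the plus strand, and the centralspindlin partners Kif23 at chr9:61946785-61946934 and Racgap1 at chr15:99651642-99651791, both on the minus strand. Birc5, at chr11:117849102-117849251 on the plus strand, is shown as a gene with neither element in this stretch.
Cdc20: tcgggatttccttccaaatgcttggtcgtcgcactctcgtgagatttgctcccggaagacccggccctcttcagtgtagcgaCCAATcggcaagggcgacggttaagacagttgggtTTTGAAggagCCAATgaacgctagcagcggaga
Ube2c: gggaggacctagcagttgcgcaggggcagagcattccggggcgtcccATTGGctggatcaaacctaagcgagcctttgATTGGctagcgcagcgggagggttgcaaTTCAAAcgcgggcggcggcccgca
Espl1: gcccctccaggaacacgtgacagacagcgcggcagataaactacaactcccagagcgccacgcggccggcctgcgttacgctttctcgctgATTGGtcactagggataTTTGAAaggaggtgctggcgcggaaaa
Kif11: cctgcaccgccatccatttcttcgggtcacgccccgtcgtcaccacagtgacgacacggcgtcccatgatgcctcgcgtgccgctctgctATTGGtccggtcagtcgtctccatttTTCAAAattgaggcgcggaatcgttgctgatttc
Kif23: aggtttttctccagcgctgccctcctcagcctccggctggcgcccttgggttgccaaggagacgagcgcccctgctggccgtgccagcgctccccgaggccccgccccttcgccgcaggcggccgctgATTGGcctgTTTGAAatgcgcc
Racgap1: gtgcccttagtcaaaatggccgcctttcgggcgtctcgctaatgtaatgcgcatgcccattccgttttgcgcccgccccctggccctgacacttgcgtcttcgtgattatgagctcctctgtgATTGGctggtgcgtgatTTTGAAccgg
Birc5: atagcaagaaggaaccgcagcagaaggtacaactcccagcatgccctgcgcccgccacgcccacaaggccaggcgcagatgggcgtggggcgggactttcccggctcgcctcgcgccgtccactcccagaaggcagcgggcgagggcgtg
In Cdc20 the CHR letters begin 18 bases before the start, between CCAAT letters at 53 and 8 bases before it. In Ube2c they begin 29 bases before the start, after CCAAT letters at 88 and 57. Kif23 and Racgap1 hold the same pair closer to the start, with CCAAT letters 7 and 12 bases before it and CHR letters at bases 3 and 6 after it.

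Across the 39 genes with a window, 32 (82.1%) held a CHR, searched as TTTGAA or TTCGAA on both strands, against 21.7% of the 27025 genes with a window in RefSeq. Among the 8791 genes with a window that were tested for expression, the share was 16.8%. Within 50 bases of the start the CHR letters stood in 28 of the 39 (71.8%), against 4.46% of the genes tested. CCAAT letters were found in 28 genes (71.8%), against 43.9% of the genes tested and 41.1% of all genes, and both elements in 27 (69.2%), against 7.18% and 8.61%. The letters of the 2 elements overlapped in 1 of the 42 windows of these genes. Of the other letters searched, AACGG, a MYB-like motif, stood in 41.0% of the mitotic genes, 27.0% of the genes tested and 19.6% of all genes, and TTTNNCGC, an E2F-like motif, in 17.9%, 10.4% and 5.93%. The elements searched and the promoters shown were chosen with the expression values known, and a match of letters is a description of the window and not of a bound site.

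**Figure D1:**
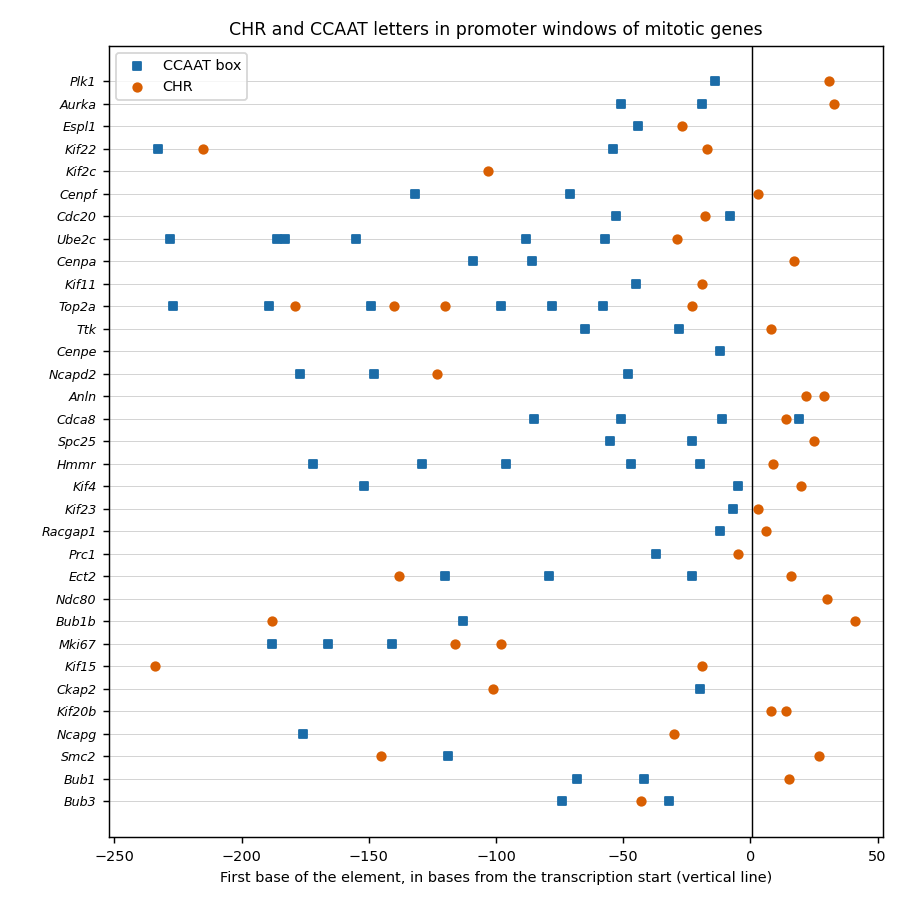
Positions of CHR letters (orange circles) and CCAAT letters (blue squares) in the promoter windows of the mitotic genes that hold at least 1 of them, in bases from the transcription start (vertical line), with 1 window drawn per gene and genes ordered from the smallest share of the LPS level left with UDCA (top) to the largest (bottom). CHR letters lie close to the start in most genes, 28 of 39 within 50 bases of it, and nearly all CCAAT letters drawn lie before it.

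Transcripts of nearly the whole list were lower with UDCA. With limma on log2(TPM + 1) over the 11796 genes that averaged 1 TPM or more, 44 of the 45 genes were tested, and 41 fell by at least 2-fold at a Benjamini-Hochberg FDR under 0.05. By the same rule 8.44% of all genes tested fell and 8.71% rose. The filter took the mean over all 8 libraries. Of the 44 genes, 5 averaged under 1 TPM with UDCA and passed it only through their LPS level. These were Ttk, Kif11, Kif20b, Cenpe and Nusap1. All of them are among the 41, and for them the filter favoured a fall. Of the 44 genes 0 rose, and 0 were higher in limma at an unadjusted p under 0.05. The median log2 fold change of the 44 genes was -2.01, with a range from -4.37 to -0.03, beside a median of 0.08 over all genes tested. A fold change on this scale understates the change of genes with few TPM. Summed over the list, TPM was 1525.26, 1448.26, 1412.45 and 1465.94 in the LPS libraries and 285.06, 279.51, 302.96 and 310.19 in the LPS + UDCA libraries. The sum with UDCA was thus 20.1% of that with LPS, and the libraries of each group lay within a narrow band. In bulk RNA, a smaller share of dividing cells and less of these transcripts per cell cannot be told apart.

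In 44 of the 45 genes each LPS + UDCA library was below each LPS library, and Smc4 was the exception. By that rule 29.9% of all genes tested were lower. For each of the 44 the exact 2-sided permutation test gave p = 0.029, the smallest that 4 libraries against 4 allow. Levels with LPS ran from 0.895 TPM for Cenpf to 119.8 TPM for Ube2c, with a median of 22.4 TPM, and levels with UDCA from 0.0875 TPM for Cenpf to 60.0 TPM for Bub3, with a median of 2.80 TPM. The share of the LPS level that remained had a median of 18.1% and was under 10% in 11 genes and under 25% in 30. On the fitted scale 22 of the 44 genes fell by 4-fold or more, a size of fall seen in 1.57% of all genes tested. Of the 100 genes with the lowest log2 fold changes of all, 16 were from this list. At 10 TPM or more stood 29 of the 45 genes with LPS and 10 with UDCA, and no value among the 360 was listed at 0. The 41 calls were shared by the fits with median-of-ratios scaling and with quantile normalization.

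**Figure D2:**
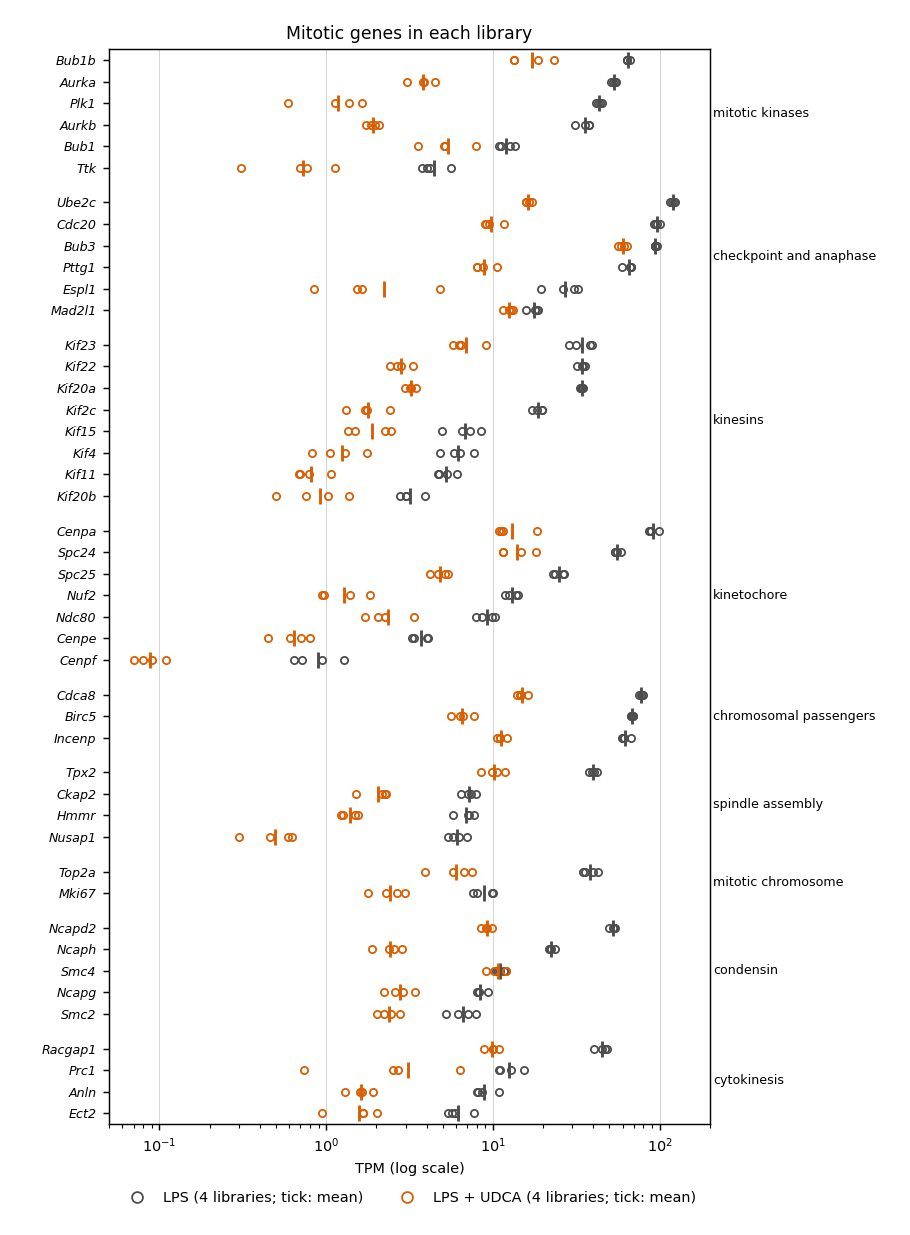
TPM of the 45 mitotic genes (log scale) in each of the 4 LPS libraries (grey circles) and 4 LPS + UDCA libraries (orange circles), with ticks at the group means, by class and by level with LPS. The circles of the groups are apart in 44 genes, and those of Smc4, between 9.06 and 12.03 TPM, overlap.

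All 6 mitotic kinases fell, and 3 of them had the lowest log2 fold changes of the list. Plk1, the Polo kinase that acts in centrosome maturation, spindle assembly and mitotic exit (chromosome 7, 122159439 to 122169873 in GENCODE M21 on GRCm38), measured 43.78, 45.31, 42.75 and 41.43 TPM with LPS and 0.59, 1.65, 1.37 and 1.13 TPM with UDCA. All 4 values with UDCA were under 4% of the LPS mean, and the log2 fold change of -4.37 (SE 0.14, limma FDR 1.7e-08) was the lowest of the list and the fourth lowest of all genes tested. In Plk1, 14.8% of the 31-base words of its transcripts occur in other genes and an antisense gene overlaps it, so part of its reads may not be its own. Aurkb, the kinase of the chromosomal passenger complex, measured 37.51, 37.92, 31.29 and 35.83 TPM with LPS and 1.74, 1.87, 1.97 and 2.07 TPM with UDCA. Its values with UDCA were the most even among the kinases, and its log2 fold change was -3.65 (SE 0.08, limma FDR 1.5e-09). Aurka, which acts at spindle poles, went from 53.02 ± 1.72 to 3.81 ± 0.59 TPM (SD, n = 4 each), a log2 fold change of -3.50. The kinases of the kinetochore checkpoint kept more of their transcripts. Ttk, which starts checkpoint signalling, measured 5.64, 4.22, 3.77 and 4.00 TPM with LPS and 1.13, 0.77, 0.70 and 0.31 with UDCA (log2 fold change -1.65 in limma, SE 0.17). Bub1b, which encodes BubR1, an inhibitor of APC/C, had 26.5% left, at 17.13 ± 4.74 TPM. Bub1, its paralog at the outer kinetochore, had 44.8% left, the most of the class: 13.59, 10.92, 11.16 and 12.59 TPM with LPS against 5.06, 3.57, 5.14 and 7.87 TPM with UDCA. The groups of Bub1 were apart, but its log2 fold change of -1.06 (SE 0.18, limma FDR 5e-04) became -0.91, short of 2-fold, without LPS + UDCA replicate 2. Plk1, Aurkb and Aurka were all among the 20 lowest log2 fold changes of all genes tested.

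Of the 6 genes of the checkpoint and of anaphase, the 4 that act in anaphase fell. Ube2c, the ubiquitin-conjugating enzyme of APC/C and the most abundant gene of the list, measured 123.02, 115.62, 118.12 and 122.52 TPM with LPS and 15.81, 15.85, 17.25 and 16.39 TPM with UDCA. Its libraries were very even within groups, and its log2 fold change was -2.80 (SE 0.04, limma FDR 3.5e-10). Cdc20, the APC/C activator, went from 95.98 ± 3.33 to 9.80 ± 1.23 TPM, and Pttg1, which encodes securin, from 65.24 ± 3.59 to 8.83 ± 1.17 TPM. Of the Cdc20 transcript words, 25.5% occur in other genes, and Elovl1 overlaps it on the opposite strand. Espl1, which encodes separase, varied more, with 30.61, 32.56, 26.23 and 19.53 TPM with LPS and 1.54, 1.65, 4.81 and 0.85 TPM with UDCA, and its groups were still apart. The remaining pair, which senses unattached kinetochores, stayed short of 2-fold. Bub3, a partner of Bub1 and BubR1, measured 93.62, 96.60, 93.41 and 94.19 TPM with LPS and 60.88, 63.63, 56.45 and 59.02 TPM with UDCA. Mad2l1, which encodes the Mad2 protein that holds Cdc20, measured 18.01, 18.62, 15.71 and 18.37 TPM with LPS and 12.47, 11.45, 12.77 and 13.13 TPM with UDCA. Both were lower in each library with UDCA, with 63.5% and 70.5% left, at log2 fold changes of -0.65 (SE 0.04) and -0.47 (SE 0.07) and limma FDRs of 1.1e-06 and 0.00023. Bub3 was thereby the most abundant gene of the list with UDCA, after being the third with LPS.

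All 8 kinesins of the list fell, with a median log2 fold change of -1.97. Summed kinesin TPM with UDCA was 13.7% of that with LPS, the smallest share of the 9 classes, close to 14.2% for the mitotic kinases. The order differed by gene. The median share left was 17.82% for kinesins, 11.85% for mitotic kinases and 13.57% for checkpoint and anaphase genes. Kif22, a chromokinesin that pushes chromosome arms, had 34.16 ± 1.63 TPM with LPS and 2.80 ± 0.39 with UDCA (log2 fold change -3.21). Kif20a, a motor of the central spindle, measured 34.72, 34.40, 33.34 and 33.98 TPM with LPS and 2.98, 3.20, 3.24 and 3.48 TPM with UDCA. Its groups were the least scattered of the kinesins, and its log2 fold change was -3.06 (SE 0.06, limma FDR 8.4e-10). Cdc23 overlaps Kif20a on the opposite strand. Kif2c, a microtubule depolymerase of the centromere, went from 18.76 ± 1.19 to 1.79 ± 0.45 TPM, and Kif23, the motor of centralspindlin, from 34.34 ± 5.13 to 6.893 ± 1.497 TPM. The other four were low in both groups. Kif11, which pushes spindle poles apart, had 15.6% of its LPS level left, Kif4, a chromokinesin that shortens central spindle microtubules, 20.05%, Kif15, which shares the pole-separating role of Kif11, 27.8%, and Kif20b, a cytokinesis motor, 28.7%. Kif11, Kif4, Kif15 and Kif20b had LPS means between 3.19 and 6.81 TPM, and their log2 fold changes lay between -1.78 and -1.14.

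The 6 kinetochore genes tested fell, and the 7 of the class stood with UDCA at between 9.78% and 25.6% of their LPS levels. Cenpa, the histone variant that marks centromeres, measured 99.04, 89.32, 87.46 and 86.88 TPM with LPS and 11.22, 11.55, 18.30 and 10.93 TPM with UDCA (log2 fold change -2.74). Replicate 3 with UDCA was higher than the other three, and still far below the LPS libraries. Nuf2, Ndc80, Spc24 and Spc25 encode the 4 subunits of the NDC80 complex, which binds microtubules, and all 4 fell. Nuf2 had 9.86% left, at 1.29 ± 0.42 TPM, Spc25 19.5%, at 4.85 ± 0.53 TPM, Spc24 25.1%, at 13.97 ± 3.21 TPM, and Ndc80 25.6%, at 2.35 ± 0.71 TPM. Cenpe, a kinesin of the kinetochore, had 17.4% left, at 0.642 ± 0.150 TPM. Cenpf, a large kinetochore protein, had a mean under 1 TPM and was not tested, with 1.28, 0.94, 0.72 and 0.64 TPM with LPS and 0.07, 0.11, 0.08 and 0.09 TPM with UDCA. In a fit without the filter on low values its log2 fold change was -0.79 (SE 0.10, limma FDR 0.00035), which is short of 2-fold on a scale that adds 1 TPM, although 9.78% of its level remained.

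The chromosomal passengers were highly expressed with LPS and fell together. Birc5, which encodes survivin, measured 69.15, 67.24, 67.36 and 68.92 TPM with LPS and 5.60, 7.69, 6.33 and 6.65 TPM with UDCA (log2 fold change -3.20, SE 0.08, limma FDR 3e-09). Incenp, the scaffold of the complex, went from 61.90 ± 3.43 to 11.18 ± 0.65 TPM, and Cdca8, which encodes borealin, from 77.65 ± 1.48 to 14.92 ± 1.03 TPM. Survivin transcripts thus kept 9.63% of the LPS level, beside 18.1% for Incenp and 19.2% for Cdca8. Among the spindle assembly genes, Nusap1, which bundles microtubules, had 8.08% left, Hmmr, a microtubule-binding spindle protein, 19.96%, Tpx2, the activator of Aurora A, 25.4%, and Ckap2 28.5%. Tpx2 was the most abundant of them, at 39.96 ± 1.95 TPM with LPS and 10.16 ± 1.40 with UDCA.

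Top2a, the topoisomerase that untangles sister chromatids, measured 42.75, 35.61, 34.71 and 39.75 TPM with LPS and 3.91, 6.71, 5.80 and 7.50 TPM with UDCA (log2 fold change -2.51, SE 0.16, limma FDR 8.4e-07). Mki67, which coats mitotic chromosomes and is used as a marker of proliferation, measured 10.06, 9.93, 8.01 and 7.55 TPM with LPS and 2.29, 1.79, 2.98 and 2.65 TPM with UDCA. Its groups were apart, with 27.3% left and a log2 fold change of -1.53 (SE 0.14, limma FDR 7.4e-06). Condensin I compacts chromosomes and consists of Smc2, Smc4, Ncapd2, Ncapg and Ncaph, and 4 of these 5 genes fell. Ncaph, which closes the ring, went from 22.38 ± 0.87 to 2.41 ± 0.40 TPM, and Ncapd2 from 52.35 ± 1.92 to 9.18 ± 0.58 TPM. Ncapg had 32.9% left and Smc2 35.9%, with log2 fold changes of -1.33 and -1.17. Smc4 (chromosome 3, 69004738 to 69034623) measured 11.61, 11.11, 10.39 and 10.75 TPM with LPS and 11.91, 9.06, 12.03 and 10.14 TPM with UDCA. Its groups overlapped, with a log2 fold change of -0.03 (SE 0.09, limma FDR 0.79, exact permutation p = 0.83). Smc4, the only gene of the 44 past neither threshold, also hosts Mir15b and Mir16-2 in the annotation.

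The 4 cytokinesis genes fell to between 18.1% and 25.4% of their LPS levels. Racgap1, which pairs with Kif23 in centralspindlin, measured 48.69, 45.13, 40.35 and 46.88 TPM with LPS and 10.04, 8.84, 10.82 and 9.97 TPM with UDCA (log2 fold change -2.08). Anln, which encodes anillin, a scaffold of the contractile ring, went from 8.87 ± 1.34 to 1.61 ± 0.25 TPM, and Ect2, the exchange factor that activates RhoA, from 6.18 ± 1.06 to 1.57 ± 0.45 TPM. Prc1, which cross-links the central spindle, varied between libraries, with 15.36, 10.92, 11.08 and 12.81 TPM with LPS and 2.52, 0.74, 2.71 and 6.38 TPM with UDCA. Its groups did not overlap, and its log2 fold change of -1.90 had the largest SE of the list (0.36, limma FDR 0.0011).

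Across the list, spread relative to the mean was wider with UDCA. Levels were also lower there, and their part in this spread was not tested. The coefficient of variation over 4 libraries had a median of 7.92% with LPS and 18.3% with UDCA, and it was over 30% in 1 gene with LPS and in 9 with UDCA. Against the LPS means, the median gene of the list stood between -0.09 and 0.08 on the log2 scale in the LPS libraries and between -2.19 and -2.03 in the LPS + UDCA libraries, so no library of one group approached the other. The order of the 44 tested genes by level was largely kept, with a Spearman correlation of 0.81 between the means with LPS and with UDCA, a description over genes of the same 8 libraries. More abundant genes had lower fitted log2 fold changes (Spearman -0.57 over the 44 genes), and less so when the plain ratio of mean TPM was used, without the added 1 TPM (Spearman -0.28). At the top of the order with LPS stood Ube2c, Cdc20, Bub3, Cenpa and Cdca8, and with UDCA Bub3, Bub1b, Ube2c, Cdca8 and Spc24. Bub1b and Ube2c, at 17.13 ± 4.74 and 16.32 ± 0.67 TPM with UDCA, did not differ beyond their spread, nor did Cdca8 and Spc24, at 14.92 ± 1.03 and 13.97 ± 3.21 TPM.

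Ratios of TPM were taken within each library for 12 pairs of genes whose proteins work together, chosen after the values were seen and given without a test. In 7 pairs the ranges of the groups were apart, and in 5 they overlapped. Ndc80 to Nuf2, subunits that form 1 coiled coil, stood between 0.678 and 0.744 with LPS and between 1.46 and 2.39 with UDCA. The Nuf2 level was thus the higher of the pair in all LPS libraries and the lower in all LPS + UDCA libraries. Ncapg to Ncaph likewise went from between 0.363 and 0.396 to between 1.02 and 1.22. The first gene was relatively lower with UDCA for Aurkb to Incenp (0.52 to 0.624 with LPS, 0.159 to 0.185 with UDCA), Birc5 to Cdca8 (0.85 to 0.913, 0.383 to 0.554), Aurka to Tpx2 (1.29 to 1.38, 0.26 to 0.533) and Smc2 to Smc4 (0.506 to 0.68, 0.17 to 0.275). Cdc20 to Mad2l1 had the widest shift, with ratios of 5.06 to 5.98 with LPS and 0.695 to 0.911 with UDCA. Centralspindlin kept its ratio within the spread, with Kif23 to Racgap1 between 0.631 and 0.834 with LPS and between 0.576 and 0.841 with UDCA. Spc25 to Spc24, Kif4 to Prc1, Espl1 to Pttg1 and Bub1 to Bub3 overlapped as well.

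**Figure D3:**
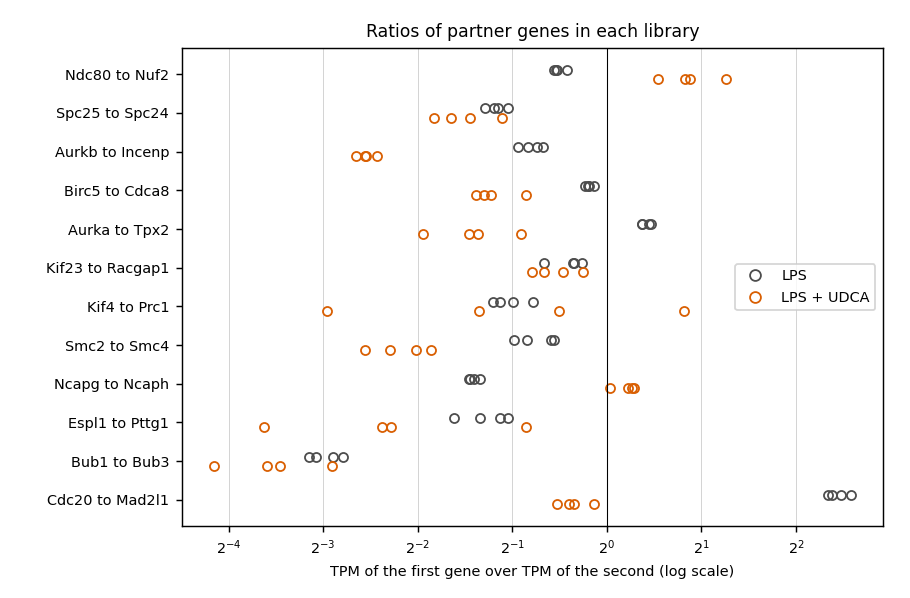
TPM of the first gene over TPM of the second (log scale, vertical line at 1) in each of the 4 LPS libraries (grey) and 4 LPS + UDCA libraries (orange) for 12 pairs of partner genes. Ndc80 to Nuf2 and Ncapg to Ncaph lie to the right with UDCA, Cdc20 to Mad2l1 lies far to the left, and Kif23 to Racgap1 overlaps.

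Other genes of mitosis were counted in 12 lists, set beside the background of 8.44% lower and 8.71% higher and the median log2 fold change of 0.08 over all genes tested. That background holds for the calls at 2-fold and FDR under 0.05. Here and below, counts at an unadjusted p under 0.05 have no share of all genes beside them. Without a fold minimum many genes of the whole fit pass in both directions, so those counts are descriptions only. Among genes of mitotic entry and exit, 13 of 19 tested fell and 0 rose, with a median of -1.76, and 2 were higher in limma at an unadjusted p under 0.05. Cdk1, the mitotic kinase, went from 166.2 ± 8.70 to 16.97 ± 2.76 TPM (log2 fold change -3.23), Ccnb1, cyclin B1, fell by 2.88 on the log2 scale and Ccna2, cyclin A2, by 3.48. Of the Ccnb1 transcript words, 27.7% occur in other genes. Haspin, a histone kinase, had the smallest fall of those called, at -1.08. Of 32 other kinetochore and centromere genes tested, 21 fell and 0 rose, with 1 higher at that p and a median of -1.27, from Ska3 at -2.35 to Cenpw at -1.02. All 3 other mitotic kinesins tested fell, from Kif18b at -2.54 to Kif18a at -1.19. In these 3 lists no call was in the other direction.

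Further lists hold machinery that also serves cells outside mitosis. Of the 16 APC/C subunits and co-activators, 2 fell and 0 rose, with 5 lower and 7 higher in limma at an unadjusted p under 0.05 and a median log2 fold change of 0.10, and the called ones were Anapc11 at -1.26 and Anapc5 at -1.002. Of 20 dynein and dynactin genes tested, 0 fell and 2 rose, with 5 lower and 11 higher at that p and a median of 0.14. The called ones were Pafah1b1 at 1.15 and Dynlt3 at 1.10. Of 17 transport and other interphase kinesins tested, 2 fell and 1 rose, with 5 lower and 9 higher at that p and a median of 0.24, between Kifc3 at -1.41 and Kif3c at 1.24. These 3 lists had medians close to that of all genes. Of 14 cohesin genes tested, 3 fell and 2 rose, with 4 lower and 8 higher at that p and a median of 0.54. Cdca5, which encodes sororin, fell by 3.21 on the log2 scale, and Nipbl, the cohesin loader, rose by 1.28. Of 22 genes of abscission, ESCRT and septins, 2 fell and 2 rose by at least 2-fold, while at an unadjusted p under 0.05 in limma 4 were lower and 17 higher. The median was 0.35, and the calls ran from Cep55, the midbody organizer, at -2.34 to Chmp4c at 1.52, whose SE was 0.48 (limma FDR 0.017).

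Among the 27 centrosome and centriole genes tested, 5 fell and 1 rose, with a median of -0.29. At an unadjusted p under 0.05 in limma, 14 were lower and 5 higher. The calls ran from Tacc3, a spindle microtubule protein, at -2.10 to Tubgcp4 at 1.11. Condensin II and other chromosome structure genes held 3 that fell and 1 that rose of 8, with 5 lower and 2 higher at that p. Their median was -0.55. Ncapg2 was at -1.82, and Top2b, the topoisomerase of resting cells as well as dividing ones, at 1.14, while Top2a, its mitotic paralog, was at -2.51. Of 15 tubulins tested 2 fell and 2 rose, from Tuba1b at -1.38 to Tubb2a at 1.86. At that p 8 were lower and 5 higher, and the median was -0.36. The Tuba1b and Tubb2a values are uncertain, since 68.9% of the Tuba1b words and 56.4% of the Tubb2a words occur in other genes. This share differs between tubulins. Of the others called, it was 3.24% in Tubb6, at a log2 fold change of -1.22, and 43.1% in Tubb2b, at 1.36.

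**Figure D4:**
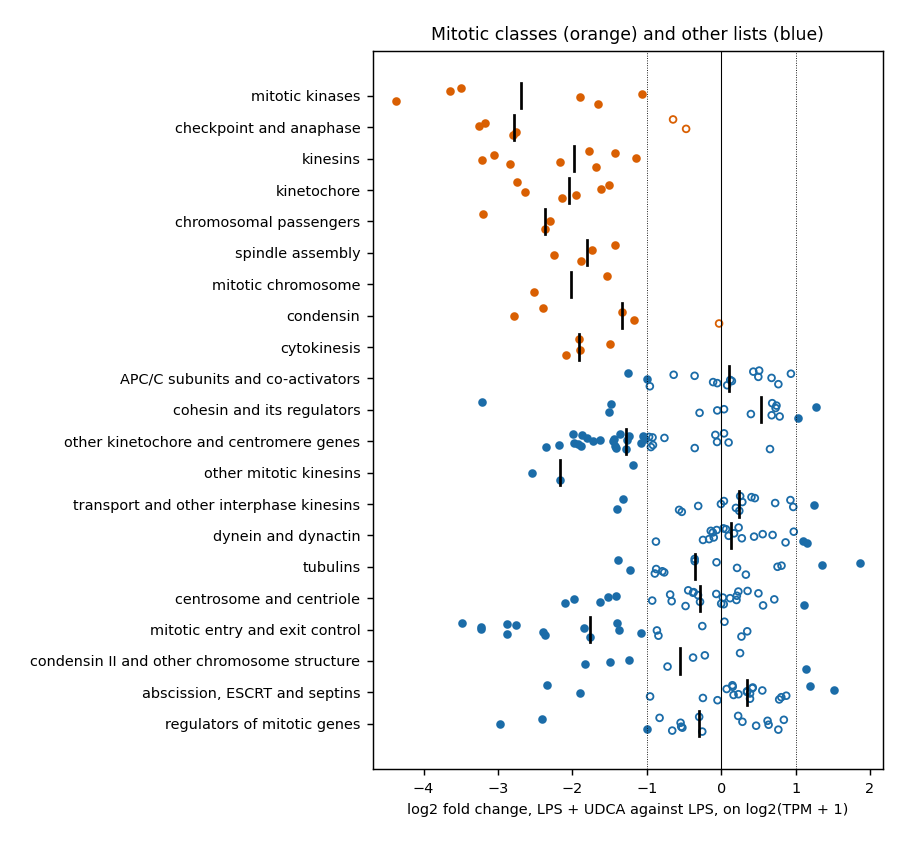
Log2 fold changes of LPS + UDCA against LPS on log2(TPM + 1) for the tested genes of the 9 mitotic classes (orange) and the 12 other lists (blue), with 1 circle per gene, filled where called (fold change of at least 2 and FDR under 0.05), black bars at the medians and dotted lines at 2-fold. The orange circles lie to the left of 0, most of them past 2-fold, while APC/C, dynein, interphase kinesins and septins lie on both sides of 0.

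Of the 17 regulators of mitotic genes 3 fell and 0 rose, with a median of -0.30. At an unadjusted p under 0.05 in limma, 10 were lower and 7 higher. Foxm1, the forkhead activator of G2 and M phase genes, went from 17.38 ± 1.99 to 2.47 ± 0.34 TPM (log2 fold change -2.40), and Mybl2, which encodes B-Myb, the activator that joins MuvB, from 30.64 ± 2.55 to 3.04 ± 0.46 TPM (-2.97). Of the Mybl2 transcript words, 21% occur in other genes. Rbl1, the pocket protein p107, was at -1.004. The other pocket protein of DREAM, Rbl2, had a log2 fold change of 0.77 (limma FDR 9.3e-06), and Lin54, the subunit that contacts the CHR, of 0.28 (limma FDR 0.057). Trp53 was at -0.26 and Cdkn1a, which encodes the Cdk inhibitor p21, at 0.23, with 598.1 TPM with LPS and 700.4 TPM with UDCA. These 4 stayed short of 2-fold.

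The share with a CHR was also taken over the rest of the genes that fell. Among the other 715 genes that fell and had a window, 22.9% held a CHR and 10.3% held it within 50 bases of the start, against 14.5% and 3.44% of the 726 genes that rose and 16.0% and 3.64% of the 7312 that were not called. Shares by list were 48.3% of the 29 other kinetochore genes with a window and 46.2% of the 13 genes of mitotic entry and exit. They were 3 of 15 APC/C genes, 18.8% of 16 dynein and dynactin genes and 3 of 4 other mitotic kinesins. Condensin II and other chromosome structure stood at 75.0% of 8 genes, cohesin at 40.0% of 10 and abscission, ESCRT and septins at 29.4% of 17. The median log2 fold changes of those last 3 lists were -0.55, 0.54 and 0.35. Regulators stood at 30.8% of 13, centrosome genes at 20.8% of 24, tubulins at 7.69% of 13 and interphase kinesins at 6.25% of 16. Within the 45 genes, 31 tested genes with a CHR in the window had a median log2 fold change of -1.90 and the 7 without a median of -2.63. Those 7 were Birc5, Ncaph, Pttg1, Nuf2, Nusap1, Cenpe and Mad2l1, from Birc5 at -3.20 to Mad2l1 at -0.47, which was not called. The median fall was thus larger in the 7 genes without the letters, and this difference was not tested. RefSeq starts can differ from the start in use in these cells, and 6 of the 45 genes had no window.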

How the data were processed

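RNA of J774A.1 cells was sequenced on an Illumina HiSeq instrument from TruSeq libraries, 4 per group. The authors deposited a table of values per gene to 2 decimals, taken here as TPM. The unit was inferred from the values, whose column sums lie just below the fixed total of TPM. The submitters' processing notes name mm10, GRCm38 and Bowtie 0.12.2, with no role for each, and the counting program, annotation and strandedness are not given in the sources used here. Genes that overlap on opposite strands may therefore share reads.

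Groups followed the sample labels. The members and lists were chosen with earlier results of these data known. From each other list the called genes with the highest and lowest log2 fold change were named, with Foxm1, Mybl2, Lin54, Rbl1, Rbl2, Cdkn1a, Trp53, Cdk1, Ccnb1 and Ccna2; others were chosen after their values were seen. The 11796 genes that averaged 1 TPM or more were fitted on the log2(TPM + 1) scale in limma 3.58.1 under R 4.3.3 (lmFit, eBayes with a trend, tested on simulated data), with Benjamini-Hochberg adjustment over all of them. The fold change of at least 2 and FDR under 0.05 are the study's thresholds. Its statistics section names a single test for all comparisons and none for RNA sequencing in particular, so limma was chosen here to suit the unit. Exact permutation tests covered 70 arrangements. Where a symbol had several rows, the one with the highest mean was used. Positions, overlaps and words of 31 bases shared between genes are from GENCODE M21. Alternatives covered normalization, filter, pseudocount, fold minimum, trend, replicate block and leaving out each library. Tables and figures were made with Python 3.11.15, pandas 2.3.3, SciPy 1.17.1 and matplotlib 3.10.9.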

Additional observations from a re-analysis of the deposited data

Results flagged for a closer look

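In each gene of the list, the highest and lowest of the 4 libraries of a group were compared with the others by Dixon's criterion at 95%, in 90 groups of 4 libraries. In 7 groups 1 library stood apart, where chance gives about 1 in 20 groups. Among the LPS libraries, Bub1b was highest in replicate 4 at 66.73 TPM, Incenp was highest in replicate 1 at 66.99 TPM, Ncapg was highest in replicate 1 at 9.35 TPM, and Pttg1 was lowest in replicate 4 at 59.88 TPM. Among the LPS + UDCA libraries, Cdc20 and Cenpa were highest in replicate 3, at 11.63 and 18.3 TPM, and Ckap2 was lowest in replicate 4 at 1.52 TPM. The groups of these 7 genes did not overlap, and each gene was called lower whichever library was left out.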

How the results depend on the processing

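The median log2 fold change of the mitotic genes tested was -2.01, and became -2.12 with median-of-ratios scaling, -2.37 both under a filter at a mean of 5 TPM and under a pseudocount of 0.1, and -1.59 with a pseudocount of 5. The 41 genes called lower became 27 with a pseudocount of 5 (Bub1, Cenpe, Ckap2, Ect2, Hmmr, Kif11, Kif15, Kif20b, Kif4, Mki67, Ncapg, Ndc80, Smc2 and Ttk were lost), 22 with a fold change of at least 4 and 30 of 33 tested with a mean of at least 5 TPM. Those 41 were shared by both other normalizations, a pseudocount of 0.1, no filter and no trend, and 0 were called higher in any fit. Over all genes, the main limma fit made here gave 995 lower and 1028 higher. A mean of at least 5 TPM gave 683 higher, and a pseudocount of 5 gave 532 lower and 357 higher. No fold minimum gave 3807 lower and 4741 higher, and a fold change of at least 4 gave 179 lower and 85 higher. Without 1 library at a time, the counts were 972 to 1033 lower and 959 to 1122 higher, the median of the mitotic genes -2.11 to -1.98, and those called lower 40 to 41, with Bub1 lost without LPS + UDCA replicate 2. Smc4 ranged from -0.0802 to 0.0442 without 1 library, positive without LPS + UDCA replicate 2, and was called in no fit. The cause of these changes was not tested.

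The groups share replicate numbers, and in a fit with a replicate block 1000 genes were lower and 1034 higher and the same 41 mitotic genes were called. Deviations of same-numbered libraries correlated between -0.04 and 0.15, with a mean of 0.09, and those of other numbers between -0.145 and 0.162. Of the 8 libraries, 5 correlated best with their own number. These values do not settle whether the numbers mark pairs, and the main fit left them unpaired. Depth is unknown, so counting error in genes with few TPM was not assessed.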
